A study of Rattus norvegicus with 8 samples.

Results

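The genes described here are the 7 protein genes of the rat mitochondrial genome that encode subunits of respiratory complex I, namely mt-Nd1, mt-Nd2, mt-Nd3, mt-Nd4l, mt-Nd4, mt-Nd5 and mt-Nd6. They were chosen by name, as 7 of the 32623 Ensembl gene IDs of the count matrix, and all 7 passed the filter on low counts that left 16867 genes tested. RNA of the hippocampus was sequenced from 32-week-old rats of strains SHR (spontaneously hypertensive rat), which becomes hypertensive with age, and WKY (Wistar-Kyoto), its usual normotensive comparator, with 4 libraries each. The labels name no transgene and no treatment other than sodium pentobarbital, which was given to both strains for anaesthesia. The question here was whether messengers of this enzyme differ in the hippocampus of the hypertensive strain. Separate animals are not stated for the libraries, so the p-values reflect only how these libraries vary, which may be technical variation. The files give no symbols, so hippocampal marker genes could not be looked up, and the tissue label rests on the submitters' description.

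Complex I (NADH:ubiquinone oxidoreductase) is the entry point of the respiratory chain: it passes electrons from NADH to ubiquinone and pumps protons across the inner mitochondrial membrane. The 7 mitochondrial genes encode the hydrophobic core of its membrane arm, and nuclear genes encode the remaining subunits. In mammals mt-Nd1, mt-Nd2, mt-Nd3, mt-Nd4l, mt-Nd4 and mt-Nd5 lie in this order along the long transcript of one strand of the mitochondrial DNA, here called the heavy-strand genes. The transfer RNAs between genes are cut out of that transcript to free the messenger RNAs, and mt-Nd4l and mt-Nd4 stay joined on a single messenger. mt-Nd6 is the only protein gene transcribed from the other strand. Neurons depend heavily on oxidative phosphorylation, and transcripts of the mitochondrial genome are among the most abundant in brain RNA.

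The libraries held 45048841 to 49560687 counts in SHR and 53045139 to 53699673 counts in WKY. The 7 genes together took 4.73, 3.25, 3.05 and 3.20% of all counts in SHR replicates 1 to 4, against 3.27, 3.86, 3.49 and 3.84% in WKY replicates 1 to 4. The 95% Wilson intervals of these shares were at most 0.0124 percentage points wide and cover counting error only. SHR replicate 1 was above every other library, and the other SHR libraries were below the lowest WKY library. By counts not scaled for gene length, mt-Nd1, mt-Nd2, mt-Nd5 and mt-Nd4 ranked 5, 6, 8 and 9 among all genes. Gene lengths were not used here, so levels are compared between libraries within a gene and not between genes.

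A pair of libraries stood apart. SHR replicate 1 was high for these genes, as detailed below. WKY replicate 4 moved the series as a whole: 6 of 16867 genes differed between strains over all 8 libraries (edgeR quasi-likelihood test, adjusted p under 0.05), and 458 of 17029 did without it. WKY replicate 4 also had 1653 genes at 1.5 times or more the mean of the other WKY libraries, the most of the 8 libraries. Fold changes, shares and ratios between the strains are therefore also given without SHR replicate 1 and without WKY replicate 4.

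None of the 7 genes passed the test between SHR and WKY. Over all genes tested 0.0356% passed. At an unadjusted p under 0.05 the count was also 0 of 7 in edgeR, against 12.1% of all genes. At an adjusted p under 0.05 it was 0 of 7 in limma-voom, against 0.0296% of all genes, and 0 of 7 in DESeq2. In DESeq2 1.46% of 22544 genes passed, a base without the filter on low counts that includes any genes given no adjusted p. The log2 fold change of SHR over WKY lay between -0.16 and 0.18 for the 7 genes. It was below 0 for 2 of the 7 and for 50.8% of all genes tested, whose median was -0.00435. Their CPM (counts per 1000000, scaled by the TMM method) overlapped between the strains for 7 of 7, while 6.72% of all genes had ranges that did not overlap. The summed level of the 7 genes averaged 35604 ± 8976 CPM over the SHR libraries and 36304 ± 2998 CPM over the WKY libraries (SD, n = 4 each). In bulk tissue, fewer cells of a type and less RNA per cell cannot be told apart.

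mt-Nd1 (ENSRNOG00000030644) encodes the subunit at the ubiquinone-binding site, where the membrane arm meets the peripheral arm. It was at 13919, 8760, 9075 and 9254 CPM in SHR replicates 1 to 4, against 10822, 12010, 10852 and 12004 CPM in WKY replicates 1 to 4. Apart from SHR replicate 1, every SHR library was below every WKY library. The log2 fold change was -0.16 ± 0.14 (SE), with a 95% interval of -0.48 to 0.17 (edgeR, adjusted p = 0.709). Without SHR replicate 1 it was -0.34 ± 0.08, a level 0.792 times that of WKY, with an interval of -0.51 to -0.16. The unadjusted p was then 0.00223 in edgeR, and the value did not pass the test over all genes (adjusted p = 0.321). SHR replicate 1 was singled out for its high values of these genes, so this unadjusted p does not test a lower level. Without WKY replicate 4 it was -0.13 ± 0.16 (edgeR, adjusted p = 0.737).

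mt-Nd3 (ENSRNOG00000033615) encodes a small subunit beside the same site, whose exposed loop changes position between the active and the resting enzyme. It was at 878, 847, 867 and 869 CPM in SHR replicates 1 to 4, against 812, 760, 747 and 991 CPM in WKY replicates 1 to 4. The SHR libraries were nearly level, with a coefficient of variation of 1.51%, against 13.6% in WKY. WKY replicate 4 was the highest of all 8 libraries and the only WKY library above SHR. The log2 fold change was 0.06 ± 0.10 (interval -0.15 to 0.28, edgeR adjusted p = 0.838), and 0.06 ± 0.11 without SHR replicate 1 (edgeR, adjusted p = 0.869). Without WKY replicate 4 it was 0.16 ± 0.07 (interval 0.00476 to 0.32), with an unadjusted p of 0.0446 in edgeR and an adjusted p of 0.274. In those 7 libraries the ranges were apart for 1 of the 7 genes, mt-Nd3, with SHR wholly above WKY. Of all genes, 17.2% had ranges apart in either direction and 17.2% had an unadjusted p under 0.05. A count of 1 of 7 is near these percentages, so it is not read as particular to mt-Nd3.

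mt-Nd6 (ENSRNOG00000029042), a membrane subunit on the path that links the ubiquinone site to the proton channels, was at 1793, 1132, 1080 and 1135 CPM in SHR replicates 1 to 4, against 1021, 1298, 1190 and 1226 CPM in WKY replicates 1 to 4. SHR replicate 1 was again the highest library, and the other SHR libraries lay within the WKY range. The log2 fold change was 0.12 ± 0.16 (interval -0.24 to 0.47, edgeR adjusted p = 0.819), it was -0.08 ± 0.09 without SHR replicate 1 (edgeR, adjusted p = 0.776) and 0.14 ± 0.17 without WKY replicate 4 (edgeR, adjusted p = 0.762). mt-Nd4l (ENSRNOG00000031053), the smallest of the core subunits, was at 3490, 2109, 1812 and 2137 CPM in SHR and at 2071, 2468, 2259 and 2565 CPM in WKY replicates 1 to 4. Its log2 fold change was 0.03 ± 0.18 (interval -0.38 to 0.43, edgeR adjusted p = 0.970), -0.21 ± 0.10 without SHR replicate 1 (edgeR, adjusted p = 0.482) and 0.07 ± 0.20 without WKY replicate 4 (edgeR, adjusted p = 0.898).

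mt-Nd2 (ENSRNOG00000031033), mt-Nd4 (ENSRNOG00000029707) and mt-Nd5 (ENSRNOG00000029971) encode the 3 antiporter-like subunits that carry proton channels. mt-Nd2 was at 12312, 8264, 7650 and 7995 CPM in SHR replicates 1 to 4, against 8458, 10508, 9188 and 10201 CPM in WKY replicates 1 to 4. As for mt-Nd1, the SHR libraries other than replicate 1 were all below the WKY libraries. The log2 fold change was -0.08 ± 0.15 (interval -0.42 to 0.26, edgeR adjusted p = 0.877). Without SHR replicate 1 it was -0.26 ± 0.10, a level 0.833 times that of WKY (edgeR, unadjusted p = 0.0231, adjusted p = 0.379). As for mt-Nd1, the library left out was singled out for its high values, so this unadjusted p does not test a lower level. Without WKY replicate 4 it was -0.05 ± 0.16 (edgeR, adjusted p = 0.919).

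mt-Nd4 was at 7491, 5138, 4171 and 4622 CPM in SHR replicates 1 to 4, against 4733, 5900, 5130 and 5394 CPM in WKY replicates 1 to 4. The SHR libraries held both the highest and the lowest value. Its log2 fold change was 0.02 ± 0.17 (interval -0.35 to 0.39, edgeR adjusted p = 0.978), -0.18 ± 0.11 without SHR replicate 1 (edgeR, adjusted p = 0.546) and 0.03 ± 0.18 without WKY replicate 4 (edgeR, adjusted p = 0.964). mt-Nd5 was at 9076, 5705, 4882 and 5955 CPM in SHR replicates 1 to 4, against 4761, 6112, 5662 and 6070 CPM in WKY replicates 1 to 4. It had the largest positive log2 fold change of the 7, at 0.18 ± 0.18 (interval -0.21 to 0.57, edgeR adjusted p = 0.727), -0.03 ± 0.11 without SHR replicate 1 (edgeR, adjusted p = 0.946) and 0.22 ± 0.19 without WKY replicate 4 (edgeR, adjusted p = 0.622).

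**Figure D1:**
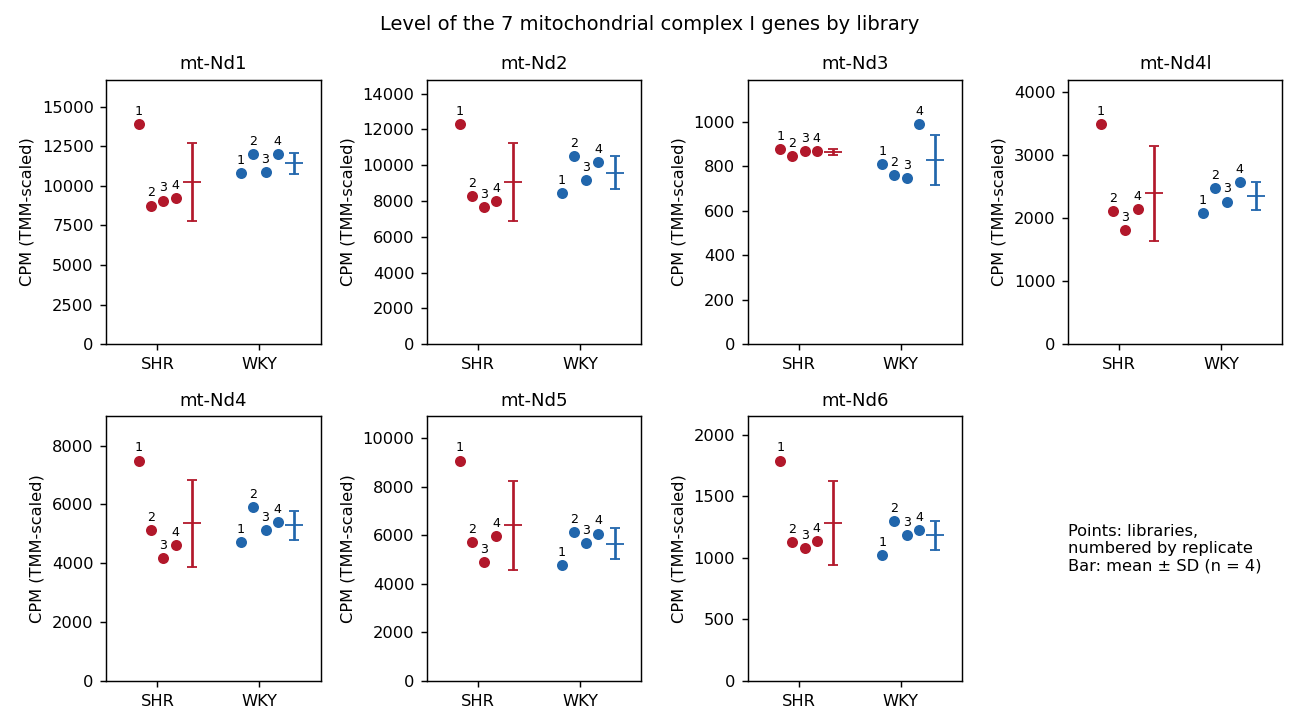
Level of each of the 7 genes in CPM (TMM-scaled, axis from 0) in the 4 SHR and the 4 WKY libraries, numbered by replicate, with the mean ± SD of each strain. SHR replicate 1 is the highest library in 6 of the 7 panels, and in the mt-Nd3 panel the SHR libraries lie between 847 and 878 CPM.

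The SHR mean thus rested on SHR replicate 1 for 6 of the 7 genes. Its level was 1.73 times the mean of the other SHR libraries for mt-Nd4l, 1.65 times for mt-Nd5, 1.61 times for mt-Nd4 and for mt-Nd6, and 1.54 times for mt-Nd1 and for mt-Nd2. For mt-Nd3 the ratio was 1.02. In that library 6 of the 7 genes were at 1.5 times or more the other SHR libraries, against 4.95% of all genes tested. The coefficient of variation of mt-Nd1 was 23.9% over the 4 SHR libraries, 2.77% over the 3 without SHR replicate 1 and 5.91% in WKY. That of mt-Nd4l was 31.4% over the 4 SHR libraries, 8.92% without SHR replicate 1 and 9.42% in WKY. SHR replicate 1 was singled out because it was high for 6 of these same 7 genes. Leaving it out must lower their SHR means and takes out the value that widened their SHR ranges. The values without it therefore describe the remaining libraries and do not test a lower level in SHR. The percentages of all genes involve no such choice. Without that library SHR varied less than WKY for 6 of the 7 genes, and mt-Nd4 was the exception, at 10.4% in SHR and 9.26% in WKY. Without SHR replicate 1, 6 of the 7 log2 fold changes were below 0, against 49% of all genes. 2 of the 7, mt-Nd1 and mt-Nd2, were then lower in every SHR library than in any WKY library, against 6.46% of all genes, and 0 of the 7 passed the test, against 0.00585% of all genes. At an unadjusted p under 0.05 the count without SHR replicate 1 was 2 of 7, against 11.3% of all genes. Over all 17 alternative settings the adjusted p of the 7 genes lay between 0.120 and 0.9998. Without WKY replicate 4, 2 of the 7 log2 fold changes were below 0 (50.1% of all genes) and 0 passed the test, against 2.69% of all genes.

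**Figure D2:**
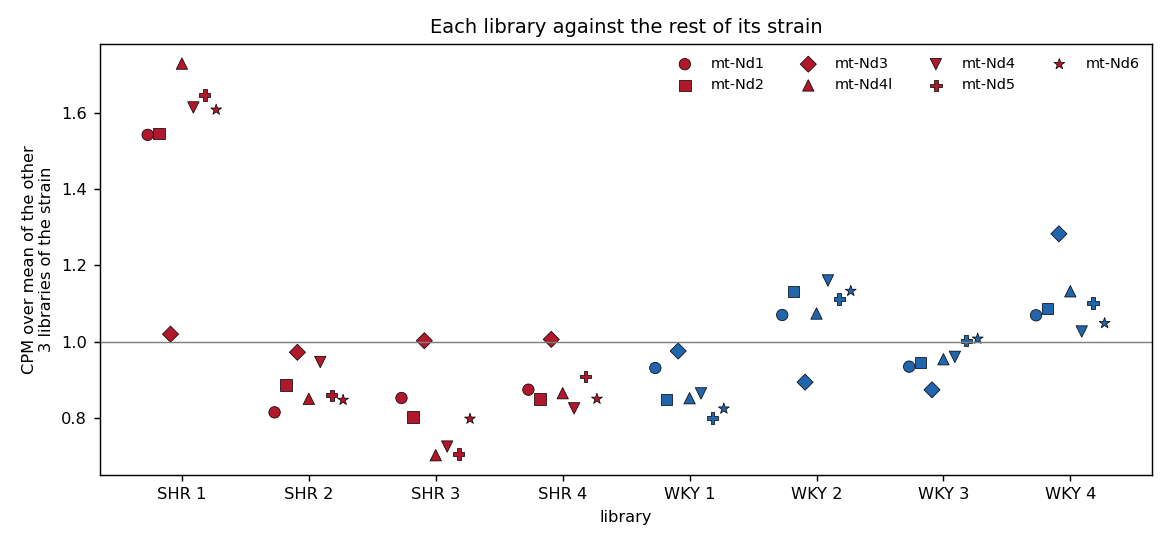
CPM of each gene in a library divided by its mean in the other 3 libraries of the same strain, for the 4 SHR (red) and 4 WKY (blue) libraries, with 1 symbol per gene. In SHR replicate 1, 6 genes lie between 1.54 and 1.73 while mt-Nd3 is at 1.02, and in WKY replicate 4 mt-Nd3 is the highest gene, at 1.28.

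With both libraries left out, an alternative added after the data were seen, 0 of the 7 passed the test, against 1.34% of all genes. The lowest adjusted p was then that of mt-Nd1, whose log2 fold change was -0.31 ± 0.08 (edgeR, adjusted p = 0.120). This set again leaves out SHR replicate 1, singled out for its high values of mt-Nd1 among others. mt-Nd3 had a log2 fold change of 0.16 ± 0.07 in the same 6 libraries (edgeR, adjusted p = 0.340) and mt-Nd5 one of 0.000204 ± 0.12 (edgeR, adjusted p = 0.9998).

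**Figure D3:**
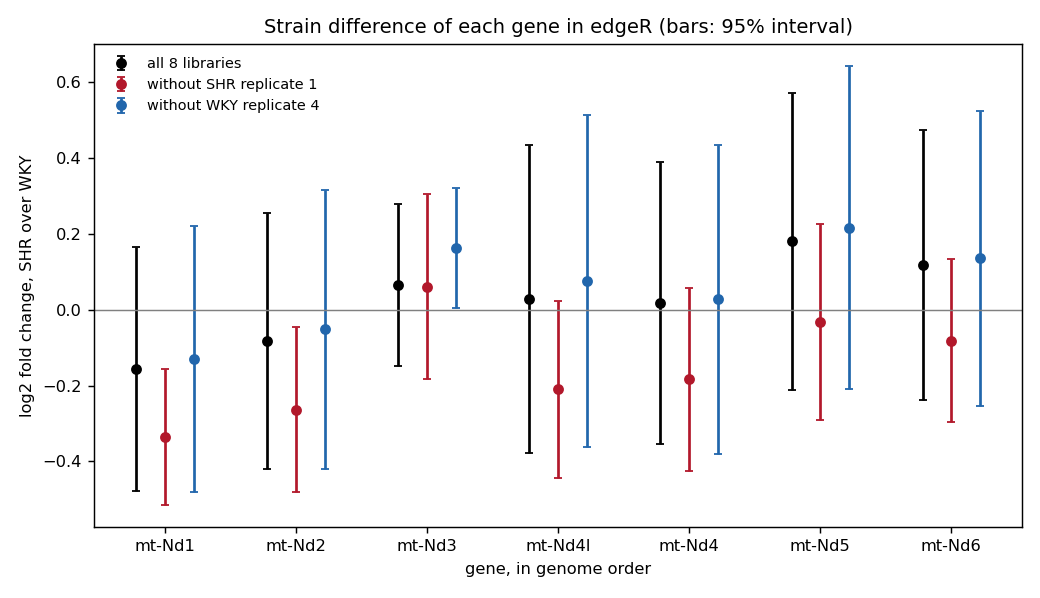
Log2 fold change of SHR over WKY for each gene in genome order, with its 95% interval in edgeR, over all 8 libraries (black), without SHR replicate 1 (red) and without WKY replicate 4 (blue). Over all 8 libraries every interval spans 0, and without SHR replicate 1 those of mt-Nd1 and mt-Nd2 lie below it. SHR replicate 1 was singled out for its high values of these genes.

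For 3 of the 7 genes, the proportions among the 7 lay apart between the strains. These proportions are counts of a gene as a percentage of the 7 genes' summed counts, so they need no scaling between libraries, and a larger share of one gene lowers the others. The share of mt-Nd5 was 18.5, 17.9, 16.5 and 18.6% in SHR replicates 1 to 4, against 14.6, 15.6, 16.2 and 15.8% in WKY replicates 1 to 4. Every SHR library was above every WKY library. The share of mt-Nd6 was 3.66, 3.54, 3.66 and 3.55% in SHR, against 3.12, 3.32, 3.40 and 3.19% in WKY, again with no overlap. The share of mt-Nd1 was 28.4, 27.4, 30.7 and 28.9% in SHR, against 33.1, 30.8, 31.0 and 31.2% in WKY. Here all SHR libraries were lower, SHR replicate 3 (30.72%) only narrowly so beside WKY replicate 2 (30.75%).

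Thus 3 of the 7 shares did not overlap between strains. Relative to the same sum of the 7 genes, 1.93% of all genes tested had ranges that did not overlap. That sum was high in SHR replicate 1, which widens the SHR range of genes outside the 7. In the shares of the 7 this excess cancels in part, so 1.93% is a low figure to set beside 3 of 7. Ranges apart over all 8 libraries must stay apart when libraries are left out. Leaving libraries out therefore could not test the shares of mt-Nd1, mt-Nd5 and mt-Nd6 and could only add others. mt-Nd2 was added, lower in SHR, without SHR replicate 3 and without WKY replicate 1. For those sets the percentage of all genes apart was not computed. mt-Nd3 was added, higher in SHR, without SHR replicate 1 and without both SHR replicate 1 and WKY replicate 4. Without SHR replicate 1, 4 of the 7 shares were apart, against 21.3% of all genes. Without WKY replicate 4, 3 of the 7 were apart, against 6.36%. Without both, 4 of the 7 were apart, against 27.9%. These shares were singled out after their values were seen and carry no test.

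The remaining 4 shares overlapped over all 8 libraries. mt-Nd2 took 25.5 ± 0.47% of the counts of SHR libraries and 26.4 ± 0.44% of those of WKY libraries, and mt-Nd4 took 15.0 ± 0.88% in SHR and 14.6 ± 0.45% in WKY (SD, n = 4 per strain). mt-Nd4l took 6.64 ± 0.41% in SHR and 6.44 ± 0.16% in WKY. The share of mt-Nd3 was 1.79, 2.65, 2.94 and 2.72% in SHR, against 2.49, 1.95, 2.13 and 2.58% in WKY. It was lowest in SHR replicate 1, the library where the other 6 genes were highest.

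**Figure D4:**
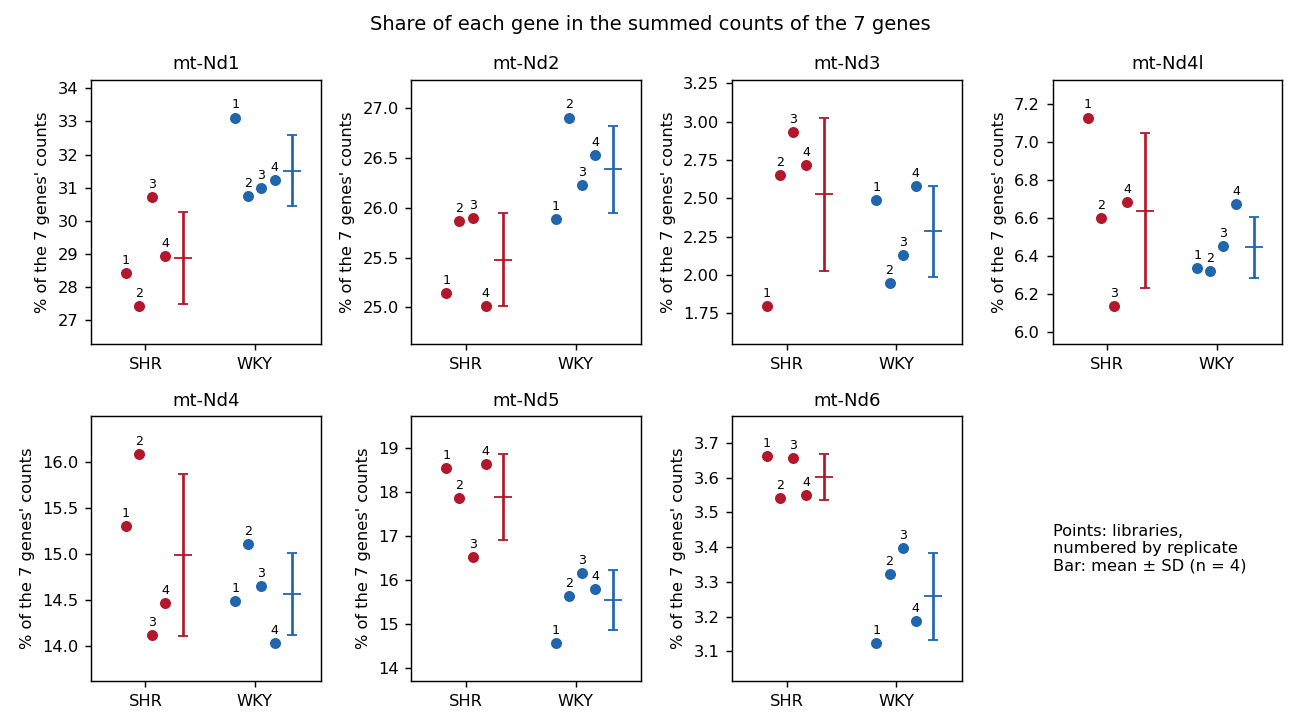
Share of each gene in the summed counts of the 7 genes, in percent, for the 4 SHR and the 4 WKY libraries, with the mean ± SD of each strain (axes do not start at 0). All SHR points lie above all WKY points for mt-Nd5 and mt-Nd6 and below them for mt-Nd1.

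mt-Nd6, the only member from the other strand, was compared with the summed counts of the 6 heavy-strand genes by a single ratio. This ratio does not separate the strands as such. Taken singly, mt-Nd1 and mt-Nd2 were lower in SHR relative to mt-Nd6 with no overlap. The ratios of mt-Nd3, mt-Nd4l, mt-Nd4 and mt-Nd5 to mt-Nd6 overlapped between strains. Per 100 counts of all 6 heavy-strand genes there were 3.80, 3.67, 3.79 and 3.68 counts of mt-Nd6 in SHR replicates 1 to 4. The values were 3.22, 3.44, 3.52 and 3.29 in WKY replicates 1 to 4. All 4 SHR libraries were above all 4 WKY libraries. The mean log2 ratio was -4.74 ± 0.027 over SHR and -4.89 ± 0.057 over WKY libraries (SD, n = 4 per strain), a difference of 0.15 or 1.11-fold (exact permutation test, two-sided; p = 0.0286, the minimum for 70 assignments). The test was chosen with earlier results of these data known. Relative to the same 6 genes, 0.854% of all genes tested were higher in every SHR library than in any WKY library. This figure is low in part because the 6 genes summed were high in SHR replicate 1, which lowers other genes relative to them. Without WKY replicate 4 the difference was 0.14 (exact permutation test, p = 0.0286). Without SHR replicate 1 it was 0.14 (exact permutation test, p = 0.0571). Ranges that are apart must stay apart when libraries are left out, so these sets did not test the separation. The total counts of the strains also did not overlap (given above), and their part in this ratio was not tested. Without both, the difference was 0.13 (exact permutation test, p = 0.100, the smallest that 20 assignments can give). Relative to the same 6 genes, 20.7% of all genes were higher in every SHR library without SHR replicate 1, 2.21% without WKY replicate 4 and 24.1% without both.

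The test did not hold when the 6 genes were combined by their geometric mean, which weighs all 6 equally whatever their counts. The difference was then 0.11 (exact permutation test, p = 0.143). Which of the 6 genes made this change was not tested. The strand setting of the counting is not given in the sources used here, so counts of mt-Nd6 cannot be told apart from reads of heavy-strand RNA that crosses it, and nuclear copies of mitochondrial genes could share reads with all 7.

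Between single genes, 5 of 21 pairs had ratios that did not overlap between strains. Of all ratios of 1 of the 7 genes to 1 gene outside them, 2.56% did not overlap. The high values of SHR replicate 1 widen most of those outside ratios, so 2.56% is a low figure to set beside 5 of 21. The 5 pairs set mt-Nd1, mt-Nd2 or mt-Nd4l against mt-Nd5, or mt-Nd1 or mt-Nd2 against mt-Nd6. In all 5 mt-Nd1, mt-Nd2 or mt-Nd4l was lower in SHR relative to mt-Nd5 or mt-Nd6. Leaving libraries out cannot make such ranges overlap, so it could not test these 5 pairs. The number of pairs apart was 9 without SHR replicate 1, 6 without WKY replicate 4 and 10 without both. Of the ratios to genes outside the 7, 16.9%, 9.67% and 25.8% were apart in turn. The widest difference was between mt-Nd5 and mt-Nd1. Per 100 counts of mt-Nd1 there were 65.2, 65.1, 53.8 and 64.3 counts of mt-Nd5 in SHR replicates 1 to 4, against 44.0, 50.9, 52.2 and 50.6 in WKY replicates 1 to 4. SHR replicate 3 was the SHR library nearest to WKY.

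The pair carried on a single messenger gave the smallest difference. Per 100 counts of mt-Nd4 there were 46.6, 41.0, 43.4 and 46.2 counts of mt-Nd4l in SHR replicates 1 to 4, against 43.8, 41.8, 44.0 and 47.6 in WKY replicates 1 to 4. The means were 44.3 ± 2.6 for SHR and 44.3 ± 2.4 for WKY (SD, n = 4 per strain), and the strains overlapped throughout. Likewise mt-Nd6 per 100 counts of mt-Nd5 was 20.2 ± 1.3 in SHR and 21.0 ± 0.54 in WKY, and mt-Nd2 per 100 counts of mt-Nd1 was 88.4 ± 4.3 in SHR and 83.8 ± 4.0 in WKY, with overlap in both. These pair ratios were described after the data were seen and carry no test.

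**Figure D5:**
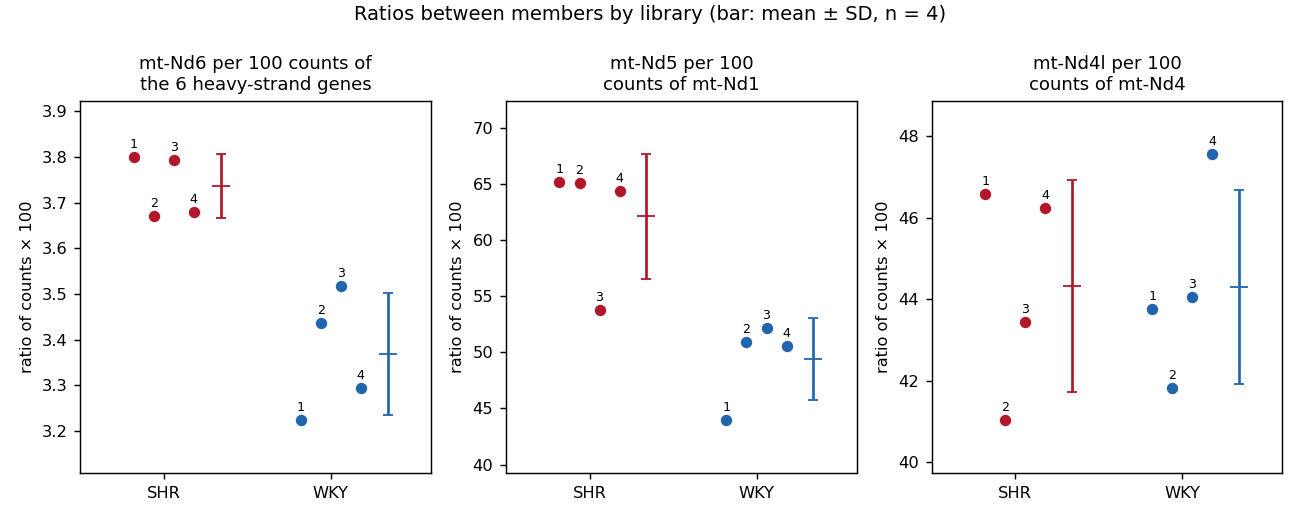
Counts of mt-Nd6 per 100 counts of the 6 heavy-strand genes, of mt-Nd5 per 100 of mt-Nd1 and of mt-Nd4l per 100 of mt-Nd4, in the 4 SHR and the 4 WKY libraries, with mean ± SD (axes do not start at 0). SHR lies above WKY in the first 2 panels, and the strains overlap in the mt-Nd4l panel, where both means are 44.3.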

How the data were processed

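Raw gene counts were deposited by the authors in 1 matrix of 8 libraries, and again in 8 single-library tables whose values equalled it. The submitters' processing notes name the rn6 build with StringTie 1.3.4d, HISAT2 2.0.4 and cutadapt 1.9. The sources used here do not give the annotation release, the library selection or the strand setting. Headers of 4 tables carried another replicate number than the sample titles, which were used. The replicate block and the comparison of same-numbered libraries therefore rest on the title numbers.

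Counts were tested with edgeR 4.0.16 (R 4.3.3): filterByExpr, TMM scaling, quasi-likelihood F test with strain as the only term, Benjamini-Hochberg adjustment over all genes tested, threshold 0.05. CPM use these TMM factors and the counts of the genes tested. The standard error was the log2 fold change divided by the square root of F. Permutation tests were two-sided on the absolute difference of means. No pair of libraries of the same strain was treated as a duplicate (chi-square per degree of freedom at least 15.5 in 12 pairs).

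Alternatives were RLE scaling, library sizes without the 7 genes, no filter, a filter of 1 CPM in 4 libraries, limma-voom (limma 3.58.1) with and without quality weights, DESeq2 1.42.0, a replicate block, and each library left out. The genes, lists and tests were chosen with earlier results of these data known. All 7 genes are named by rule; further names required a symbol or a fixed list. The reference table gave a symbol to 0 of 32623 IDs and held 0 mitochondrial genes, so the 18 gene lists and cell type markers could not be matched, and sequences and lengths were not used. Symbols of the 7 genes come from the gene selection, not from the files.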

Additional observations from a re-analysis of the deposited data

Results flagged for a closer look

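A screen of 42 groups of 4 libraries for a single distant library found 5, and about 1 in 20 would be found by chance in independent groups, which these are not. SHR replicate 1 lay far above the other SHR libraries for mt-Nd1 (13919 CPM), mt-Nd2 (12312 CPM), mt-Nd6 (1793 CPM) and the 7 genes' share of all counts (4.73%). SHR replicate 3 lay far below the other SHR libraries for mt-Nd5 per 100 counts of mt-Nd1 (53.8).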

How the results depend on the processing

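None of the 7 genes was called in any of 17 alternatives, with adjusted p-values from 0.120 to 0.9998. Over all genes, 6 were called in the main test, 3 with no filter, 329 with DESeq2, 230 with quality weights, 226 without SHR replicate 1 and WKY replicate 4, and 1 to 458 when leaving out 1 library. Same-numbered SHR and WKY libraries did not deviate together (correlations -0.157 to -0.00338), and no SHR library correlated best with the WKY library of its own number, so the numbers were not taken to pair them. With the replicate block 1 gene was called.

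Directions turned in 15 of 119 alternative values. The log2 fold change of mt-Nd4l became -0.0136 in limma-voom and -0.0180 with the replicate block. That of mt-Nd4 became -0.0141 in limma-voom, -0.0194 with quality weights and -0.0173 with the replicate block. Without SHR replicate 1 and WKY replicate 4 it became -0.17 for mt-Nd4l, -0.18 for mt-Nd4 and -0.0691 for mt-Nd6. When 1 library was left out, it ranged from -0.26 to 0.00263 for mt-Nd2, from -0.21 to 0.15 for mt-Nd4l, from -0.18 to 0.13 for mt-Nd4, from -0.0320 to 0.30 for mt-Nd5 and from -0.0823 to 0.21 for mt-Nd6. mt-Nd1 stayed below 0 and mt-Nd3 above 0 in all 17.

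The log2 difference in mt-Nd6 relative to the 6 heavy-strand genes kept its direction in 12 of 12 alternatives. Most of these could not have turned it. All SHR libraries were above all WKY libraries, so leaving libraries out keeps the direction, and the replicate block gives the same mean difference. It was 0.11 with the geometric mean, 0.13 without SHR replicate 1 and WKY replicate 4, 0.15 with the replicate block (exact sign permutation, p = 0.125, the smallest 4 pairs allow), and 0.13 to 0.17 when leaving out 1 library (exact permutation p from 0.0286 to 0.0571). The cause of these changes was not tested. The list counts planned were not run.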

Other observations

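The nearest profiles outside the 7 genes were ranked by Pearson's r of log2 CPM with the mean log2 CPM of the 7 genes over the 8 libraries, among 13349 genes with a mean log2 CPM of at least 1. The files give no symbols, so the nearest genes are given by ID, and their functions are not described. ENSRNOG00000047145 ranked 1, with r = 0.995 over 8 libraries and 0.983 without SHR replicate 1, where it ranked 2. It was at 13.3, 9.41, 8.67 and 9.18 CPM in SHR replicates 1 to 4, against 8.94, 10.7, 9.58 and 10.5 CPM in WKY replicates 1 to 4. SHR replicate 1 was its highest library too. ENSRNOG00000031766 ranked 2, with r = 0.981 over 8 libraries and 0.957 without SHR replicate 1. It was at 16648, 11292, 10894 and 11957 CPM in SHR, against 11966, 13801, 12495 and 13715 CPM in WKY. Without SHR replicate 1 the nearest was ENSRNOG00000030700 (r = 0.985), which ranked 5 over 8 libraries (r = 0.940). It was at 13976, 11358, 10842 and 11443 CPM in SHR, against 11303, 13278, 12090 and 13061 CPM in WKY. The ranking chose these genes, so r carries no test, and the values share libraries and scaling.

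Among the 7 genes, mt-Nd3 followed the others least. Its r with each of the other 6 was 0.0264 to 0.212 over 8 libraries, while the other 6 had r of 0.688 to 0.972 with each other. Without SHR replicate 1 these ranges were -0.208 to 0.112 and 0.320 to 0.931.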
